A study of Homo sapiens with 12 samples.

Results

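The comparison described here set Huh7 cells treated with GO–Rg3–DOX at 100 µg/mL for 6 h (3 samples) against untreated Huh7 cells kept in medium only (3 samples). Its members were the genes that reached 10 counts in 3 or more of the 12 samples of the series, which were 17092 of the 63677 genes counted. Huh7 is a human hepatocellular carcinoma line. GO–Rg3–DOX is a conjugate of graphene oxide sheets (GO), the ginseng saponin ginsenoside Rg3 and the anthracycline doxorubicin (DOX), and the labels give the dose of the conjugate as a whole. The other 6 samples of the series received GO or GO–Rg3 at 400 µg/mL for 6 h, a dose that differs from that of GO–Rg3–DOX. Free DOX was not analysed here, so the parts of the drug and of the carrier at this dose cannot be told apart in this comparison. The labels do not say whether the replicates came from separate cultures, so p-values measure the spread between these samples, which may be technical.

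Doxorubicin slips between the base pairs of DNA, traps topoisomerase II on cut DNA and loosens histones from chromatin. DNA damage stabilizes p53, which in its functional form switches on genes of arrest, repair and death. Huh7 cells are p53-mutant. Immediate early genes such as FOS and EGR1, feedback inhibitors of signaling and cytokine genes make mRNAs that decay quickly, so their levels follow transcription closely. The mRNAs of plasma proteins, the main secretory products of liver cells, are long-lived in general.

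Total counts per sample were 28421737 to 38877420 in untreated cells and 30561558 to 32936070 after GO–Rg3–DOX. Genes encoded by the mitochondrial DNA took 5.31% to 6.28% of the counts in untreated cells and 12.8% to 19.4% after GO–Rg3–DOX. TMM scaling factors (the weights that even out library composition) were 1.09 to 1.101 and 0.737 to 0.863, so the scaling itself separated the groups. All 8 hepatocyte markers examined (ALB, AFP, APOA1, APOB, TTR, SERPINA1, HNF4A and FGB) were above 1 CPM. Their summed level was 21397 to 21595 CPM in untreated cells and 27816 to 32928 CPM after GO–Rg3–DOX, where CPM are counts scaled to a common library size with TMM factors. Markers of T and NK, endothelial and erythroid cells summed to at most 0.700 CPM in each sample. The 6 fibroblast markers summed to 4.88 to 6.14 CPM and 13.2 to 16.6 CPM, and the 6 myeloid markers to 149 to 155 CPM and 116 to 163 CPM. Only 3 of the fibroblast and 2 of the myeloid markers had a mean of at least 1 CPM. The myeloid markers MPO and S100A8 had no counts in these samples. In bulk samples such as these, fewer cells that express a gene and less of its RNA per cell cannot be told apart, and every level is a share of its library.

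GO–Rg3–DOX changed the levels of nearly 1 in 3 genes, with more falls than rises. By edgeR's quasi-likelihood test, 2159 genes (12.6%) were overexpressed and 3103 (18.2%) were under-expressed, calling genes whose adjusted p was below 0.01 and whose log2 fold change was above 1 or below -1. These shares are the background for each gene list below, and the lists were chosen with earlier results of these data known. Over all genes the median log2 fold change was -0.06. With library totals alone as the scaling the median moved to -0.47 and the calls to 1029 higher and 4937 lower, so that 17.3% of the calls were higher in place of 41.03%. With an offset for the GC content of transcripts the median was 0.18 and 51.5% of the calls were higher. That offset gave 2337 higher and 2205 lower genes of 17092, the background for list counts made with it. Changes are therefore relative to the scaling used. Among protein-coding genes, rises made up 25.6% in the quintile with a mean of up to 2.61 CPM, 5.85% in the middle quintile and 12.9% in the highest. Falls made up 12.4%, 29.2% and 5.73% of the same quintiles. A gene this low can pass the count filter through the group where it is high alone, and with 10 counts required in every sample 1492 genes were overexpressed and 2530 under-expressed.

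**Figure D1:**
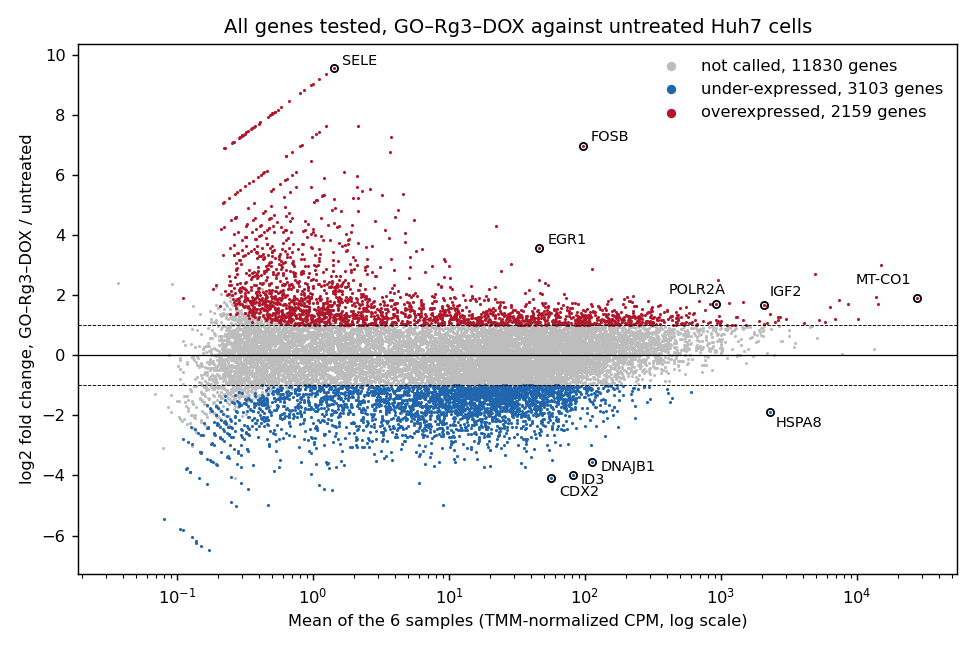
Each point is 1 of the 17092 genes tested, with the mean of the 6 samples in CPM on a log axis against the log2 fold change between 3 GO–Rg3–DOX and 3 untreated samples. The 2159 overexpressed genes are red, the 3103 under-expressed genes are blue, and dashed lines mark log2 fold changes of 1 and -1.

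The largest rises started from genes that were silent or nearly so. SELE, the endothelial adhesion molecule E-selectin, had 0 counts in every untreated sample and 2.31, 3.02 and 3.24 CPM after GO–Rg3–DOX, at least 106-fold higher when 3 counts over the group are taken as the floor. FGD5, an exchange factor for small GTPases, was also at 0 in untreated cells and rose to 2.31, 3.49 and 1.68 CPM, at least 92.6-fold. INSM2, a zinc finger repressor of endocrine cells, went from 0.0450 ± 0.0301 to 7.42 ± 2.15 CPM (log2 fold change 7.26, SE 0.39, edgeR adjusted p = 9.5e-10). The largest fall among genes of at least 1 CPM was that of PRR15L, from 18.2, 17.3 and 16.7 CPM to 0.783, 0.467 and 0.419 CPM (log2 fold change -4.97, SE 0.17, edgeR adjusted p = 2.9e-11). All treated samples lay outside the range of the untreated samples for each of these genes. Genes named for the size of their change had to meet this condition, which 12875 of the 17092 genes tested met. Among the under-expressed genes with the highest counts were HSPA8, described below, JAG1, a Notch ligand (from 634 ± 11.5 to 217 ± 3.57 CPM, log2 fold change -1.55), and EIF4A2, a translation initiation helicase (from 572 ± 16.1 to 240.4 ± 20.7 CPM, log2 fold change -1.25, not called with the GC content offset).

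Short-lived mRNAs split into a group that rose steeply and a larger group that fell. Of the members tested, which leave out 4 of the 106 listed, 19 (18.6%) were overexpressed and 37 (36.3%) were under-expressed, with a median log2 fold change of -0.55. Both shares were above the background, and their order differed by role. Among 28 immediate early transcription factors, 9 rose and 5 fell. Among 12 ID, HES and clock repressors 1 rose and 7 fell, and among 29 feedback inhibitors of signaling 2 rose and 15 fell. The 22 survival and growth genes had 2 rises and 9 falls, and the 11 cytokines and growth factors had 5 rises and 1 fall.

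FOSB, a partner of JUN in the AP-1 factor, had 1.53, 1.44 and 1.55 CPM in untreated cells and 199, 181 and 193 CPM after GO–Rg3–DOX (log2 fold change 6.98, SE 0.13, edgeR adjusted p = 2.3e-14). Every treated sample was far above every untreated sample, and the samples of each group lay close together. A lack of overlap was a condition for naming FOSB. The EGR factors, zinc finger activators induced by growth signals, rose together. EGR2 went from 0.0529, 0.0639 and 0.0707 CPM to 2.64, 4.49 and 5.34 CPM (log2 fold change 5.97, SE 0.40, edgeR adjusted p = 7e-09). EGR3 had 0, 0 and 0.0236 CPM, which was 1 count over the 3 untreated samples, and 2.39, 1.87 and 3.24 CPM after GO–Rg3–DOX. Its ratio of counts, scaled by library, was 278 with an exact 95% interval of 49.2 to 11022 that covers counting error only. EGR1, named after its values were seen, went from 6.48, 6.23 and 8.69 CPM to 85.8, 81.8 and 85.9 CPM (log2 fold change 3.56, SE 0.15, edgeR adjusted p = 9.3e-11). FOS itself rose less, from 8.23, 7.001 and 7.47 CPM to 14.1, 16.9 and 19.3 CPM (log2 fold change 1.14, SE 0.14, edgeR adjusted p = 3e-06). JUN had 57.5, 52.5 and 55.6 CPM and 53.3, 65.9 and 69.0 CPM, overlapping ranges, with a log2 fold change of 0.18 (edgeR adjusted p = 0.19). Its paralog JUND was under-expressed (from 47.4 ± 5.03 to 12.4 ± 3.83 CPM, log2 fold change -1.94), as were MYC, a driver of cell growth (from 60.8 ± 4.31 to 19.8 ± 2.94 CPM, log2 fold change -1.62), and the epithelial factor KLF5 (from 126.6 ± 4.44 to 46.7 ± 4.61 CPM, log2 fold change -1.44). Immediate early genes moved in both directions in the same samples. On GRCh37, FOSB lies on chromosome 19 from 45971253 to 45978437, EGR1 on chromosome 5 from 137801168 to 137804992 and FOS on chromosome 14 from 75745529 to 75748933.

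The ID proteins bind and silence bHLH transcription factors and are induced by BMP signals. ID3 had 155, 144 and 159 CPM in untreated cells and 8.24, 8.84 and 11.5 CPM after GO–Rg3–DOX (log2 fold change -4.0, SE 0.17, edgeR adjusted p = 9.6e-11). ID1 had 208, 178 and 203 CPM and 24.2, 26.1 and 24.6 CPM (log2 fold change -2.97, SE 0.13, edgeR adjusted p = 1.7e-10). The clock repressor BHLHE40 went from 65.0, 59.2 and 66.1 CPM to 9.27, 9.27 and 9.11 CPM (log2 fold change -2.78, SE 0.10, edgeR adjusted p = 3.3e-11). For these 3 genes the highest treated sample was far below the lowest untreated sample, and a lack of overlap was a condition for naming them. ID3 lies on chromosome 1 from 23884417 to 23885992 and ID1 on chromosome 20 from 30193086 to 30194318 (GRCh37). Among the feedback inhibitors, the antiproliferative factor TOB1 fell from 77.8, 77.3 and 73.1 CPM to 7.13, 8.77 and 10.03 CPM (log2 fold change -3.14, SE 0.13, edgeR adjusted p = 1.1e-10), and SPRY2, an inhibitor of receptor tyrosine kinase signaling, fell from 62.7, 63.8 and 64.7 CPM to 5.81, 8.34 and 8.20 CPM (log2 fold change -3.09, SE 0.16, edgeR adjusted p = 7e-10). CISH, an inhibitor of cytokine receptors, fell as well (from 3.64 ± 0.275 to 0.462 ± 0.117 CPM, log2 fold change -2.98). BTG2, also a p53 target, and ZFP36, which speeds the decay of AU-rich mRNAs, were the 2 members of this role that rose, both just past the threshold (from 17.3 ± 0.110 to 36.5 ± 7.62 CPM, log2 fold change 1.08, and from 18.2 ± 0.641 to 36.5 ± 4.22 CPM, log2 fold change 1.0). The call of ZFP36 was lost under 8 other settings and that of BTG2 under 2, each with GO–Rg3–DOX replicate 3 left out among them (0.93 and 0.92).

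Survival and growth genes had more falls than rises. IRF2BP2, a transcriptional corepressor, fell from 58.2, 56.8 and 55.3 CPM to 5.89, 7.48 and 8.27 CPM (log2 fold change -2.97, SE 0.13, edgeR adjusted p = 1.2e-10). RHOB, a small GTPase of endosomes, and ANKRD1, a target of YAP, had log2 fold changes of -2.34 and -2.10. GADD45B, a stress sensor that binds MAP kinase kinases, rose from 19.6, 16.0 and 17.7 CPM to 70.5, 58.8 and 65.5 CPM (log2 fold change 1.87, SE 0.15, edgeR adjusted p = 3.1e-08). The secreted factors held several of the steepest rises. CXCL3, a neutrophil attractant, rose from 6.14, 6.27 and 6.41 CPM to 45.7, 50.6 and 57.1 CPM (log2 fold change 3.03, SE 0.15, edgeR adjusted p = 3.8e-10). The EGF receptor ligand HBEGF rose from 2.54, 2.14 and 2.17 CPM to 17.6, 17.6 and 18.0 CPM (log2 fold change 2.96, SE 0.14, edgeR adjusted p = 2.5e-10), and CXCL1 from 30.3 ± 0.541 to 115 ± 8.42 CPM (log2 fold change 1.92). DKK1, a secreted inhibitor of WNT signaling, went the other way, from 90.2, 90.2 and 92.6 CPM to 11.99, 15.7 and 15.2 CPM (log2 fold change -2.67, SE 0.13, edgeR adjusted p = 3.5e-10). The median log2 fold change of the short-lived list was 0.21 after GO and 0.06 after GO–Rg3, comparisons that share the untreated samples and used the higher dose.

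**Figure D2:**
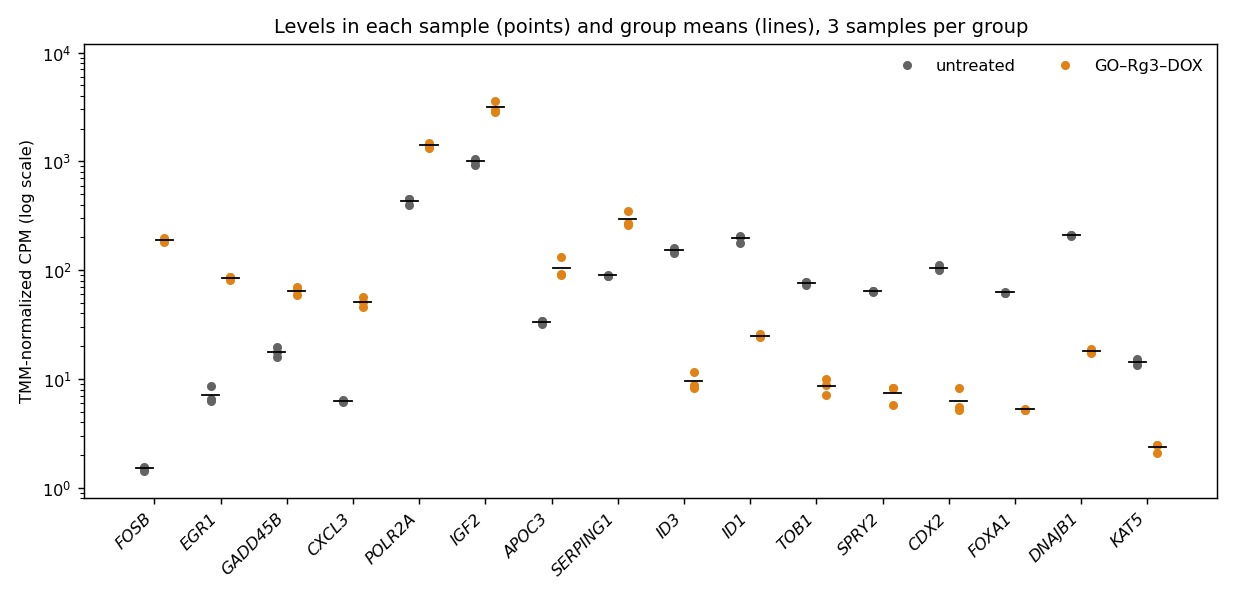
Levels of 16 genes in TMM-normalized CPM on a log axis, with grey points for the 3 untreated samples, orange points for the 3 GO–Rg3–DOX samples and black lines for group means. No gene shown has overlapping groups, which was a condition for naming most of them. The 8 genes on the left rose and the 8 on the right fell.

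Promoter sequences of 5 of these genes are shown because they carry the letters counted below and because genes of both directions hold them. They are the 120 bases before the RefSeq start on GRCh38.p14, from 5′ to 3′ on the gene's strand, and capitals mark TATAAA on either strand or a CArG box (CC, 6 bases of A or T, GG), the letters that serum response factor binds. FOSB lies at chr19:45467876-45467995 (+), EGR1 at chr5:138465359-138465478 (+), GADD45B at chr19:2476007-2476126 (+), HEXIM1 at chr17:45148355-45148474 (+) and ID1 at chr20:31605169-31605288 (+).
FOSB: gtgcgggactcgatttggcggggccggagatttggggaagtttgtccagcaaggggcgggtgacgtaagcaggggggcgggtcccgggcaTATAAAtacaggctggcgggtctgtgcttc
EGR1: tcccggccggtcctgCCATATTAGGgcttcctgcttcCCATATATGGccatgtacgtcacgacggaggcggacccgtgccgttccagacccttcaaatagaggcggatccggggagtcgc
GADD45B: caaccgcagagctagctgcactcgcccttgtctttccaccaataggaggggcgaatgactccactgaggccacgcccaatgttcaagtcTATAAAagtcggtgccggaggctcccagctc
HEXIM1: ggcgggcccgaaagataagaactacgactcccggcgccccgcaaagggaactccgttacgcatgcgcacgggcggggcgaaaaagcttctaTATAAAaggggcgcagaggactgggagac
ID1: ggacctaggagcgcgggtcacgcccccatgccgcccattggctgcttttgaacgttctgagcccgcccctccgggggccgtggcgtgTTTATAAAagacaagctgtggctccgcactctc
The first TATAAA match began 30 bases before the start in FOSB, 31 in GADD45B and 29 in HEXIM1, which rose, and 33 in ID1, which fell, where it overlaps its own reverse complement. EGR1 held 2 CArG boxes, the first 105 bases before the start.

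Over the 250 bases before the start, TATAAA occurred on either strand in 505 (5.99%) of the 8429 tested genes that have a single start in the promoter table. It occurred in 97 (10.03%) of 967 overexpressed genes and in 66 (3.92%) of 1685 under-expressed genes. In short-lived genes the share was 24.2% of 62 promoters and in liver secretion genes 21.3% of 61. The CArG box, a motif added after the values were seen, occurred in 1 (1.61%) of the 62 short-lived promoters. It occurred in 75 (0.890%) of all promoters, 20 (2.07%) of overexpressed and 6 (0.356%) of under-expressed genes. CCAAT occurred in 36.1%, 33.6% and 37.5%, and GGGCGG in 66.4%, 61.6% and 67.7%, in the same order. TGACGTCA occurred in 3.06%, 1.65% and 3.62%, and CACGTG in 8.84%, 7.76% and 7.89%. A match describes letters in this window only, and genes with several starts were not searched.

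Among genes of elongation control, some of which hold or release RNA polymerase II at its pause near the start, more fell than rose. The same held over all genes tested, of which 18.2% fell and 12.6% rose. Of 37 elongation genes tested, 3 were overexpressed, 11 (29.7%) under-expressed and the rest not called, with a median log2 fold change of -0.47. LEO1, a subunit of the PAF complex that travels with the polymerase, fell from 63.1, 58.4 and 63.0 CPM to 13.6, 9.67 and 10.4 CPM (log2 fold change -2.45, SE 0.14, edgeR adjusted p = 1.5e-09). The kinase CDK7, which marks the polymerase at initiation, fell from 30.6, 32.1 and 30.1 CPM to 5.19, 5.57 and 7.24 CPM (log2 fold change -2.36, SE 0.15, edgeR adjusted p = 3.8e-09), and CDK13, a kinase of elongating polymerase, had a log2 fold change of -1.66. In both groups of 3 the samples were tightly placed and did not overlap, the latter a condition for naming these genes. HEXIM1, which holds the elongation kinase P-TEFb inactive, rose from 57.2, 54.8 and 57.8 CPM to 96.4, 125.4 and 126.9 CPM (log2 fold change 1.04, SE 0.13, edgeR adjusted p = 5.5e-06). The call of HEXIM1 was lost with library totals (0.63 on the log2 scale), without a filter on low counts (0.96), and without GO–Rg3–DOX replicate 2 (0.98) or replicate 3 (0.97).

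POLR2A, the largest subunit of RNA polymerase II, rose from 397, 454 and 447 CPM to 1477, 1332 and 1415 CPM (log2 fold change 1.70, SE 0.10, edgeR adjusted p = 1.2e-09), while more general factors fell than rose. It lies on chromosome 17 from 7387685 to 7417933 (GRCh37). Of 54 subunits and general factors tested, 4 rose and 16 (29.6%) fell. TAF10 and TAF15 also rose, with log2 fold changes of 1.36 and 1.34. TAF1A, which serves RNA polymerase I, and GTF2H2, a subunit of TFIIH with near-identical copies, had log2 fold changes of -1.71 and -1.86, and the counts of GTF2H2 are uncertain for that reason. Mediator, which links activators to the polymerase, had 4 rises and 10 falls (30.3%) among 33 genes. MED7 fell from 10.5, 11.9 and 10.8 CPM to 1.24, 0.899 and 1.30 CPM (log2 fold change -3.28, SE 0.18, edgeR adjusted p = 9e-10) and MED31 had a log2 fold change of -2.70, whereas the tail subunits MED16 and MED24 rose, with log2 fold changes of 1.42 and 1.37, MED16 losing its call under 4 other settings and MED24 with library totals. With the GC content offset the polymerase and general factor list had 9 falls of 54 and the elongation list 5 of 37. Over all 17092 genes there were 2205 falls with this offset, so the share of the elongation list was then near the background. The median of the elongation list was then -0.30, against 0.18 over all genes.

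Among chromatin regulators more fell than rose, unevenly by family, and most were not called. Of 191 tested, 6 (3.14%) were overexpressed and 51 (26.7%) under-expressed, with a median log2 fold change of -0.28. The log2 fold change was above 0 for 77. Their summed level was 18163 to 18423 CPM in untreated cells and 17736 to 18874 CPM after GO–Rg3–DOX. Polycomb genes, which keep genes silent through histone H3 and H2A marks, had 12 falls (52.2%) and no rise among 23. Histone acetyltransferases, which open chromatin, had 6 falls (46.2%) and no rise among 13. Demethylases had 6 falls (31.6%) among 19, methyltransferases 8 (24.2%) among 33 and remodelers 10 (22.2%) among 45, where the background was 18.2%. Deacetylases were different in count, with 2 falls (11.8%) and 1 rise among 17, and a median of 0.21. With library totals 1 of the 191 was overexpressed and 74 were under-expressed, and with the GC content offset 4 and 36. Differences between the families were not tested.

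Among acetyltransferases, KAT5 (TIP60), which helps activate the ATM kinase at DNA breaks, fell from 15.2, 14.5 and 13.6 CPM to 2.47, 2.08 and 2.48 CPM (log2 fold change -2.62, SE 0.14, edgeR adjusted p = 5.9e-10). KAT7 fell from 50.3, 51.1 and 50.4 CPM to 14.4, 10.96 and 11.7 CPM (log2 fold change -2.04, SE 0.11, edgeR adjusted p = 1.2e-09), and EP300, the p300 coactivator, from 92.3, 115 and 103.1 CPM to 41.8, 44.4 and 44.99 CPM (log2 fold change -1.24, SE 0.12, edgeR adjusted p = 3.6e-07). All 3 genes had treated samples well below the untreated range, and a lack of overlap was a condition for naming KAT5 and KAT7. EP300 lies on chromosome 22 from 41488596 to 41576081 and KAT5 on chromosome 11 from 65479467 to 65487075 (GRCh37). In Polycomb, MTF2, which guides the H3K27 methyltransferase complex to DNA, fell from 65.4, 61.6 and 61.2 CPM to 12.6, 15.7 and 15.3 CPM (log2 fold change -2.10, SE 0.13, edgeR adjusted p = 3.9e-09). The deubiquitinase partner ASXL2 and the reader CBX2 had log2 fold changes of -1.94 and -1.93. KDM6A, which removes the Polycomb methyl mark, also fell, from 52.6, 55.5 and 54.1 CPM to 12.8, 13.9 and 15.02 CPM (log2 fold change -1.96, SE 0.14, edgeR adjusted p = 1.4e-08). Genes that serve and that remove the same mark were both lower. Among deacetylases SIRT2 rose (from 21.99 ± 1.06 to 46.2 ± 2.61 CPM, log2 fold change 1.07) and HDAC9 fell (from 11.8 ± 0.814 to 4.04 ± 0.544 CPM, log2 fold change -1.54), calls that were lost under 4 and 2 other settings.

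CHD1, a remodeler that follows elongating polymerase, fell from 72.8, 68.3 and 67.5 CPM to 9.60, 11.5 and 10.5 CPM (log2 fold change -2.72, SE 0.15, edgeR adjusted p = 1.3e-09), and the SWI/SNF subunits ARID2 and ARID1B had log2 fold changes of -1.97 and -1.86. CHD3, of the NuRD complex, and SMARCA4, the ATPase of SWI/SNF, were the 2 remodelers that rose, from 96.0, 101.1 and 97.6 CPM to 315, 248 and 239 CPM and from 188, 170.3 and 178 CPM to 434, 355 and 331 CPM (log2 fold changes 1.44 and 1.06). Of the paired histone chaperones ASF1A and ASF1B, ASF1A fell (from 38.02 ± 1.66 to 10.4 ± 2.26 CPM, log2 fold change -1.87) and ASF1B rose (from 65.1 ± 1.39 to 158 ± 8.53 CPM, log2 fold change 1.28). SUV39H1, a heterochromatin methyltransferase, fell (from 46.3 ± 1.03 to 13.97 ± 0.699 CPM, log2 fold change -1.73), and CARM1, an arginine methyltransferase, rose (from 74.7 ± 4.02 to 157 ± 19.7 CPM, log2 fold change 1.07). The calls of SMARCA4 and CARM1 were lost without GO–Rg3–DOX replicate 1 (0.94 and 0.96). TET1, which oxidizes methylated cytosine, fell (from 6.78 ± 0.410 to 1.64 ± 0.334 CPM, log2 fold change -2.06).

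No topoisomerase gene was called. TOP2A had 399, 383 and 371 CPM in untreated cells and 317, 335 and 349 CPM after GO–Rg3–DOX (log2 fold change -0.20, edgeR adjusted p = 0.3). TOP2B had 176, 170.5 and 164 CPM and 271, 219 and 224 CPM (log2 fold change 0.48, edgeR adjusted p = 0.0014), below the size needed for a call, and TOP1 had a log2 fold change of 0.21 (edgeR adjusted p = 0.074). With library totals the log2 fold changes of TOP1 and TOP2B were -0.21 and 0.05, and with the GC content offset those of TOP1, TOP2B and TOP2A were 0.70, 0.98 and 0.44. Of 25 genes of anthracycline metabolism and transport, 3 (12%) were overexpressed and none was under-expressed, a share close to the background. CYB5R3, a reductase that can pass electrons to the drug, went from 143 ± 9.77 to 354 ± 18.2 CPM (log2 fold change 1.31).

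Replication-dependent histone genes, whose mRNAs normally end in a stem-loop in place of a poly(A) tail, were overexpressed in 17 (51.5%) of 33 tested and under-expressed in none, with a median log2 fold change of 1.37. Another 56 of the 89 listed did not pass the count filter, which favours genes that rose. With 10 counts required in every sample 5 of 14 were overexpressed and the median was 0.75. HIST1H3B went from 0.0265, 0.128 and 0.0236 CPM to 2.31, 2.12 and 2.36 CPM (log2 fold change 5.29, SE 0.45, edgeR adjusted p = 9e-08), and HIST1H4E from 0.474 ± 0.105 to 2.36 ± 0.0485 CPM (log2 fold change 2.29). Levels were low, family members are near-identical, and libraries were made from polyadenylated RNA, so these counts are uncertain. The replication-independent variant gene H3F3B had 559, 542 and 539 CPM and 374, 444 and 452 CPM, lower in every treated sample but not called (log2 fold change -0.37, edgeR adjusted p = 0.0022, and 0.08 with the GC content offset).

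Zinc finger genes named ZNF, most of which encode KRAB repressors of repeats and genes, had the highest share of falls among the 29 lists. Of 436 tested, 262 (60.1%) were under-expressed and 6 (1.38%) overexpressed, with a median log2 fold change of -1.24. ZNF792 fell from 11.2, 11.9 and 11.2 CPM to 0.494, 0.503 and 0.801 CPM (log2 fold change -4.24, SE 0.17, edgeR adjusted p = 8e-11) and ZNF639 from 36.1, 37.4 and 37 CPM to 2.72, 2.48 and 3.43 CPM (log2 fold change -3.68, SE 0.15, edgeR adjusted p = 8.4e-11). ZNF580, with the largest rise, went from 2.99, 3.07 and 2.94 CPM to 16.5, 14.8 and 12.4 CPM (log2 fold change 2.28, SE 0.19, edgeR adjusted p = 8.5e-08). The samples of each group stayed apart for all 3 genes, which was a condition for naming them. ZNF792 lies on chromosome 19 from 35447258 to 35455133 and ZNF639 on chromosome 3 from 179040819 to 179056371 (GRCh37). With the GC content offset 194 ZNF genes were lower and with library totals 318. The list medians after GO and after GO–Rg3 were -0.06 and 0.03.

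**Figure D3:**
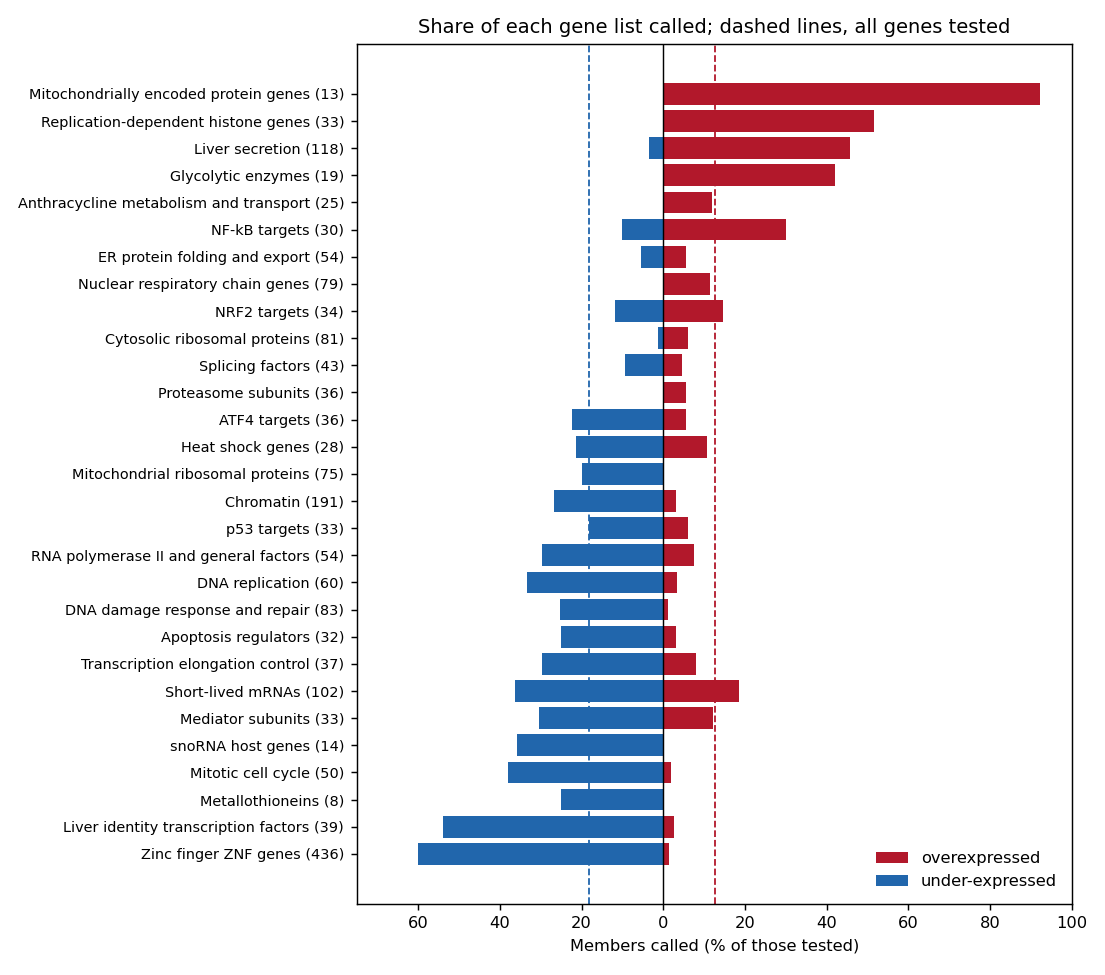
Share of the tested members of each gene list that were overexpressed (red, to the right) or under-expressed (blue, to the left), in percent, with the number tested in brackets and lists ordered by median log2 fold change. Dashed lines mark the shares over all genes, 12.6% and 18.2%. ZNF genes (60.1%) reach farthest to the left and genes encoded by mitochondrial DNA (92.3%) farthest to the right.

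Transcription factors listed for liver and gut identity had many falls. The list holds CDX2, ISX and XBP1, which the paper already reports as under-expressed after GO–Rg3–DOX, so its share of falls partly reflects that choice. Of 39 such factors tested, 21 (53.8%) were under-expressed and 1 was overexpressed, with a median log2 fold change of -1.04. There were 17 falls with the GC content offset and 19 with RLE scaling or DESeq2. CDX2, an intestinal factor, fell from 112, 101.1 and 104 CPM to 8.20, 5.21 and 5.49 CPM (log2 fold change -4.07, SE 0.17, edgeR adjusted p = 1.1e-10) and ISX, an intestinal homeobox factor, from 67.8, 66.0 and 69.8 CPM to 5.48, 5.39 and 4.54 CPM (log2 fold change -3.72, SE 0.11, edgeR adjusted p = 3e-12). FOXA1, a pioneer factor of liver enhancers, fell from 63.7, 61.5 and 61.8 CPM to 5.19, 5.32 and 5.22 CPM (log2 fold change -3.57, SE 0.10, edgeR adjusted p = 2.6e-12). The spread within each group was small beside these differences. HNF4A, the master regulator of hepatocytes, fell from 378, 352 and 359.7 CPM to 209, 172 and 158 CPM (log2 fold change -1.02, SE 0.12, edgeR adjusted p = 1.8e-06), just past the threshold. Its call was lost under 7 other settings, with log2 fold changes from -0.99 to -0.93. FOXA1 lies on chromosome 14 from 38058757 to 38065264 and HNF4A on chromosome 20 from 42984339 to 43061485 (GRCh37).

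Genes of liver secretion were overexpressed in 54 (45.8%) of those tested and under-expressed in 4 (3.39%), with a median log2 fold change of 0.97, while 14 of the 132 listed did not pass the count filter. Every role held members that rose. These were 13 of 32 plasma carriers and protease inhibitors, 17 of 27 coagulation and fibrinolysis genes, 9 of 23 complement genes, 6 of 13 apolipoproteins and 7 of 15 hormones and growth factor carriers, and 2 of 8 acute phase genes. With library totals 18 members were overexpressed and the median was 0.55, and with the GC content offset 66 were overexpressed. The list medians after GO and GO–Rg3 were 0.08 and -0.07. Mitochondrial counts and TMM factors moved with the groups as given above, and their part in these rises was not tested.

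Genes with the highest counts did not all pass the test. Albumin (ALB) had 4184, 4111 and 4123 CPM in untreated cells and 4986, 6553 and 6892 CPM after GO–Rg3–DOX, higher in every treated sample but not called (log2 fold change 0.57, edgeR adjusted p = 0.0016). The fetal carrier AFP had 12439, 12255 and 12167 CPM and 10884, 15472 and 16544 CPM, with overlap between the groups (log2 fold change 0.22, edgeR adjusted p = 0.25). APOA1, the main protein of high density lipoprotein, rose from 524, 503 and 514 CPM to 1236, 992 and 1023 CPM (log2 fold change 1.08, SE 0.15, edgeR adjusted p = 1.6e-05). AFP was at 0.85 with the GC content offset and at -0.18 with library totals. APOA1 was no longer called with library totals (0.65) or the GC content offset (0.65). The call of APOA1 was also lost without GO–Rg3–DOX replicate 1 (0.97), and ALB was called with the GC content offset (1.12). APOA1 lies on chromosome 11 from 116706467 to 116708338 and ALB on chromosome 4 from 74262831 to 74287199 (GRCh37).

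Among carriers, SHBG, the sex hormone carrier, rose from 0.529, 0.448 and 0.612 CPM to 2.35, 3.13 and 2.59 CPM (log2 fold change 2.32, SE 0.29, edgeR adjusted p = 3.8e-06) and the protease inhibitor SERPINA3 from 0.370, 0.575 and 0.495 CPM to 1.81, 1.87 and 2.33 CPM (log2 fold change 2.06, SE 0.22, edgeR adjusted p = 7.4e-07). Groups were apart for both, which was a condition for naming them. APOC3, an inhibitor of triglyceride clearance, rose from 34.2, 31.9 and 33.8 CPM to 133, 93.0 and 89.8 CPM (log2 fold change 1.66, SE 0.20, edgeR adjusted p = 3.1e-06), with replicate 1 the highest. APOC2, the activator of lipoprotein lipase, was the apolipoprotein that fell (from 2.05 ± 0.296 to 0.662 ± 0.0915 CPM, log2 fold change -1.61), and it lies in a gene cluster where transcripts overlap.

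In coagulation, the C1 inhibitor SERPING1 rose from 88.1, 89.3 and 90.9 CPM to 347, 263 and 272 CPM (log2 fold change 1.72, SE 0.12, edgeR adjusted p = 1.4e-08) and the plasmin inhibitor SERPINF2 from 171, 147 and 154 CPM to 433, 479 and 459.7 CPM (log2 fold change 1.54, SE 0.14, edgeR adjusted p = 2.2e-07). FGB, the fibrinogen beta chain, had 769.7, 757 and 751 CPM and 1358, 1397 and 1454 CPM, a separation of the groups with a log2 fold change of 0.89 that did not reach the size for a call (edgeR adjusted p = 4.6e-07). FGB was called with the GC content offset (1.42). In complement, C2 rose from 25.3, 26.2 and 27.0 CPM to 97.6, 72.6 and 71.3 CPM (log2 fold change 1.62, SE 0.15, edgeR adjusted p = 2e-07) and C1R had a log2 fold change of 1.52. C2 lies beside CFB, and transcripts that join both make their counts uncertain. IGF2, the fetal growth factor, rose from 1056, 929.5 and 1007 CPM to 3591, 2979 and 2870.1 CPM (log2 fold change 1.66, SE 0.14, edgeR adjusted p = 6.9e-08). THPO, the platelet growth factor thrombopoietin, fell from 18.5, 17.8 and 19.01 CPM to 7.42, 5.50 and 5.26 CPM (log2 fold change -1.61, SE 0.15, edgeR adjusted p = 1.8e-07), as did INHBE, a hepatokine (log2 fold change -1.1), and the acute phase gene SAA2 (log2 fold change -1.23), which has near-identical paralogs.

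**Figure D4:**
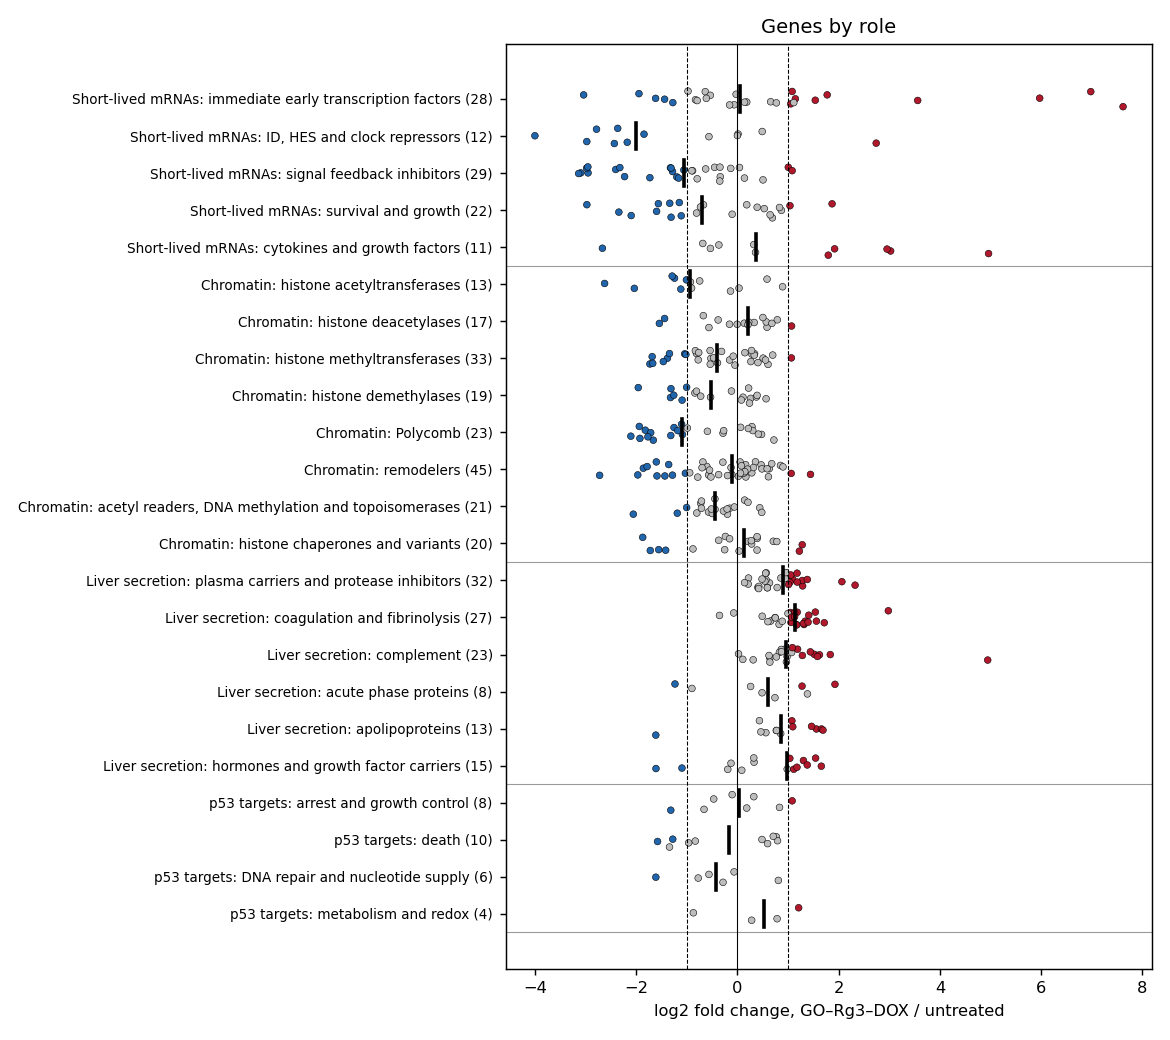
Each point is a tested gene, placed by its log2 fold change between GO–Rg3–DOX and untreated cells, with rows for the roles in 4 gene lists, 1 role of the p53 list left out, and the number tested in brackets. Red points are overexpressed, blue points under-expressed and grey points not called. Black bars mark medians, which run from -2.01 for ID, HES and clock repressors to 1.13 for coagulation and fibrinolysis genes.

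The route by which secreted proteins are folded and exported had fewer calls. Of 54 genes of the endoplasmic reticulum, 3 (5.56%) rose and 3 fell, both shares below the background, and the median log2 fold change was 0.38. The falls were in members of the unfolded protein response. XBP1, its transcription factor, fell from 377, 374 and 379 CPM to 87.4, 83.3 and 95.1 CPM (log2 fold change -2.09, SE 0.09, edgeR adjusted p = 1.7e-10) and HERPUD1, which helps degrade misfolded proteins, from 117.2, 122 and 118.1 CPM to 23.5, 20.2 and 20.1 CPM (log2 fold change -2.49, SE 0.10, edgeR adjusted p = 8e-11). DNAJB9, a co-chaperone, had a log2 fold change of -1.47. KDELR1, a retrieval receptor, and HYOU1, a chaperone of the same response, rose (from 208 ± 2.90 to 559 ± 92.9 CPM and from 566 ± 16.6 to 1283 ± 45.6 CPM, log2 fold changes 1.43 and 1.18). With library totals the median of the list was -0.04, and with the GC content offset 14 members rose.

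Few p53 targets rose in these cells, whose p53 is mutant and whose p53 activity was not tested. Of 33 tested, 2 (6.06%) were overexpressed and 6 (18.2%) under-expressed, which is the background share for falls, and the median log2 fold change was -0.28. CDKN1A, the p21 cell cycle inhibitor and best known target, had 21.4, 22.2 and 23.0 CPM in untreated cells and 23.3, 26.0 and 26.4 CPM after GO–Rg3–DOX (log2 fold change 0.18, edgeR adjusted p = 0.12). The samples did not overlap, but the difference did not pass the test, and with library totals its sign turned (-0.23). CDKN1A lies on chromosome 6 from 36644237 to 36655114 and MDM2 on chromosome 12 from 69201957 to 69239324 (GRCh37).

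Negative regulators of p53 were among the falls. MDM2, the ubiquitin ligase that p53 itself induces, fell from 40.2, 42.1 and 39.2 CPM to 17.7, 15.3 and 14.1 CPM (log2 fold change -1.36, SE 0.10, edgeR adjusted p = 2.7e-08). PPM1D, the phosphatase WIP1, fell from 20.2, 21.5 and 18.8 CPM to 6.22, 5.68 and 7.78 CPM (log2 fold change -1.62, SE 0.14, edgeR adjusted p = 7.7e-08). The highest treated sample stayed below the lowest untreated sample for both genes, which was a condition for naming PPM1D. With the GC content offset the call of MDM2 was lost (-0.74). TRIAP1 and ZMAT3, genes of cell survival and RNA control, had log2 fold changes of -1.58 and -1.28 (ZMAT3 not called with that offset), and POLH, a polymerase that copies damaged DNA, -1.61. The 2 rises were BTG2, given above, and FDXR, a mitochondrial reductase (from 6.90 ± 0.416 to 16.0 ± 0.845 CPM, log2 fold change 1.21). BAX, which opens the mitochondrial outer membrane, and the death receptor gene TNFRSF10B, both named after their values were seen, had log2 fold changes of 0.79 and 0.71 and were not called. Their samples did not overlap between the groups, as in 12875 of the 17092 genes tested. Without GO–Rg3–DOX replicate 3, 1 of the 33 was overexpressed, FDXR. With library totals 13 of the 33 were under-expressed and none overexpressed, and with the GC content offset 5 were overexpressed and 5 under-expressed.

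Among 32 apoptosis regulators 1 was overexpressed and 8 (25.0%) under-expressed, with falls on both the survival and the death side. The survival protein MCL1, whose mRNA and protein are short-lived, fell from 203, 206 and 207 CPM to 79.8, 91.5 and 106 CPM (log2 fold change -1.1, SE 0.10, edgeR adjusted p = 1.6e-07). BCL2L1, which encodes BCL-XL, fell from 567, 533 and 539 CPM to 259, 249 and 252 CPM (log2 fold change -1.11, SE 0.10, edgeR adjusted p = 2e-07). With the GC content offset the call of MCL1 was lost (-0.78). The inhibitors of apoptosis TNFAIP8 and XIAP had log2 fold changes of -2.38 and -1.28, XIAP losing its call with the same offset. On the death side BMF fell (from 25.7 ± 1.01 to 7.90 ± 1.27 CPM, log2 fold change -1.70), and BAD rose from a low level (from 0.723 ± 0.178 to 2.45 ± 0.366 CPM, log2 fold change 1.78). With the GC content offset the median of the list moved from -0.46 to -0.05.

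Genes of the cell cycle and of DNA repair had more falls than rises, as did all genes tested (18.2% and 12.6%). Of 50 mitotic genes 1 rose and 19 (38%) fell, of 60 replication genes 2 rose and 20 (33.3%) fell, and of 83 repair genes 1 rose and 21 (25.3%) fell. KIF20B, a kinesin of cytokinesis, fell from 37.8, 35.3 and 34.2 CPM to 3.75, 3.74 and 4.58 CPM (log2 fold change -3.15, SE 0.22, edgeR adjusted p = 1.2e-08) and the spindle checkpoint kinase TTK from 40.03, 39.4 and 39.4 CPM to 4.53, 4.53 and 5.45 CPM (log2 fold change -3.03, SE 0.13, edgeR adjusted p = 1.6e-10). In replication, DBF4, the activator of the CDC7 kinase, had a log2 fold change of -2.26, while the polymerase delta subunits POLD1 and POLD3 moved apart, at 1.08 and -2.14. The call of POLD1 was lost without untreated replicate 2. In repair, FANCF of the Fanconi pathway fell from 13.4, 13.3 and 12.9 CPM to 2.27, 2.01 and 2.55 CPM (log2 fold change -2.54, SE 0.13, edgeR adjusted p = 3.9e-10), and XRCC2, of homologous recombination, and the nuclease EXO1 had log2 fold changes of -2.44 and -2.20. The single rise in repair was GADD45B. The GC content offset left 13 falls among the 83 repair genes, 10 among the 60 replication genes and 16 among the 50 mitotic genes. Over all 17092 genes it gave 2205 falls, so the repair and replication shares were then closer to the background.

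Stress gene lists held members of both directions, as did all genes tested. NF-kB targets had 9 rises (30.0%) and 3 falls among 30. TNF, an inflammatory cytokine, rose from 0.265, 0.480 and 0.306 CPM to 2.51, 2.30 and 2.52 CPM (log2 fold change 2.82, SE 0.23, edgeR adjusted p = 5.3e-08), and NFKBIA and NFKBIE, inhibitors of NF-kB, fell (log2 fold changes -1.16 and -1.45). The list median was 0.43 here, 0.47 after GO and 0.31 after GO–Rg3. Heat shock genes had 3 rises (10.7%) and 6 falls (21.4%) among 28, shares near the background of 12.6% and 18.2%. DNAJB1, a co-chaperone induced by heat, fell from 208, 210.1 and 207 CPM to 17.8, 17.3 and 18.8 CPM (log2 fold change -3.54, SE 0.09, edgeR adjusted p = 1.3e-12) and HSPA8, the constitutive HSC70 chaperone, from 3615, 3641 and 3614 CPM to 979.6, 928 and 1002 CPM (log2 fold change -1.90, SE 0.09, edgeR adjusted p = 3.3e-10). HSPB1, a small heat shock protein, rose (from 65.9 ± 8.17 to 192 ± 34.5 CPM, log2 fold change 1.54). ATF4 targets had 2 rises and 8 falls (22.2%) among 36, with ATF3 up (from 17.7 ± 0.326 to 60.3 ± 7.26 CPM, log2 fold change 1.77) and TRIB3, an inhibitor of AKT, down (from 87.5 ± 4.38 to 21.7 ± 3.27 CPM, log2 fold change -2.01). The median of the ATF4 list was -0.06, the same as over all genes.

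NRF2 targets, the oxidative stress program, had 5 rises (14.7%) and 4 falls (11.8%) among 34, a share near the background for rises and below it for falls. NFE2L2, which encodes NRF2, and KEAP1, its inhibitor, both fell, from 251, 255 and 251 CPM to 73.5, 76.4 and 79.8 CPM (log2 fold change -1.72, SE 0.10, edgeR adjusted p = 2e-09) and from 96.5, 88.6 and 90.3 CPM to 21.5, 21.5 and 24.9 CPM (log2 fold change -2.02, SE 0.13, edgeR adjusted p = 3.4e-09). FTH1, the ferritin heavy chain, rose (log2 fold change 1.28). Metallothionein genes, which bind zinc and copper, had 2 falls among 8 and a median of -0.84, where the median after GO was -2.88. Glycolytic enzymes rose in 8 (42.1%) of 19, with PFKL from 90.9 ± 9.39 to 229 ± 2.36 CPM (log2 fold change 1.33). With library totals 3 of the 19 were overexpressed. Cytosolic ribosomal proteins had 5 rises and 1 fall among 81 and proteasome subunits 2 rises and no fall among 36, both below the background, and mitochondrial ribosomal proteins had 15 falls (20%) among 75. Splicing factors had 2 rises and 4 falls among 43, nuclear respiratory chain genes 9 rises (11.4%) and no fall among 79, and snoRNA host genes 5 falls (35.7%) among 14. Single samples moved some of these counts. Without GO–Rg3–DOX replicate 1 no cytosolic ribosomal protein or splicing factor was overexpressed and 4 metallothionein genes were under-expressed, and without replicate 2 or replicate 3 there were 8 or 9 overexpressed cytosolic ribosomal proteins. With library totals 6 metallothionein genes were under-expressed.

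Of the 13 proteins encoded by the mitochondrial DNA, 12 (92.3%) were overexpressed, with a median log2 fold change of 1.72. MT-CO1, a subunit of cytochrome c oxidase, had 10368, 12009.6 and 12843 CPM in untreated cells and 60082, 36698 and 35892 CPM after GO–Rg3–DOX (log2 fold change 1.91, SE 0.25, edgeR adjusted p = 7.7e-06). MT-RNR2, the large mitochondrial rRNA, had 3178, 3461 and 3498 CPM and 37503, 23271 and 20272 CPM (log2 fold change 3.0, SE 0.30, edgeR adjusted p = 4.3e-07). Replicate 1 of GO–Rg3–DOX was the highest in both genes. The median of the 13 genes was 1.73 after GO and 0.30 after GO–Rg3 at 400 µg/mL, so a median of this size was also seen without DOX, at the higher dose.

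Overexpressed and under-expressed genes differed in their structure. Among 13344 protein-coding genes with a transcript in the annotation, the quintile with the lowest GC content (30.7% to 40.7%) had 1.76% of its genes overexpressed and 31.7% under-expressed. In the quintile with the highest GC content (58.5% to 76.0%) the shares were 32.2% and 8.58%. The Spearman correlation of GC content with log2 fold change was 0.43 across these genes, which are not independent replicates and share libraries. Genes with few exons fell more often, at 31.9% in the quintile with 1 to 4 exons and 13.1% in the quintile with 17 or more. This held in each quintile of GC content. In the lowest, 51.2% of genes with up to 4 exons and 27.6% of the others were under-expressed, and in the highest 18.9% and 5.47%.

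Transcript length and gene span went the same way as each other for rises, while falls varied less with span. The quintile with the shortest transcripts (up to 1815 bases) had 19.6% overexpressed and 11.8% under-expressed, and the quintile with the longest 6.59% and 24.6%. Genes with the longest span (99960 bases or more) were overexpressed in 5.02% and under-expressed in 21.6%. For those with the shortest (up to 10757 bases) the shares were 21.8% and 18.4%. Of 270 genes with a single exon, 35.2% were under-expressed and 20.7% overexpressed. Of 66 snoRNA genes, short RNAs cut from introns that a poly(A) selection should not capture, 34 (51.5%) were under-expressed and 1 was overexpressed. Median GC content was 51.4% in short-lived genes, 43.1% in ZNF genes and 52.1% in liver secretion genes, against 48.4% over all protein-coding genes, and median exon number was 4, 5 and 8 against 9.

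**Figure D5:**
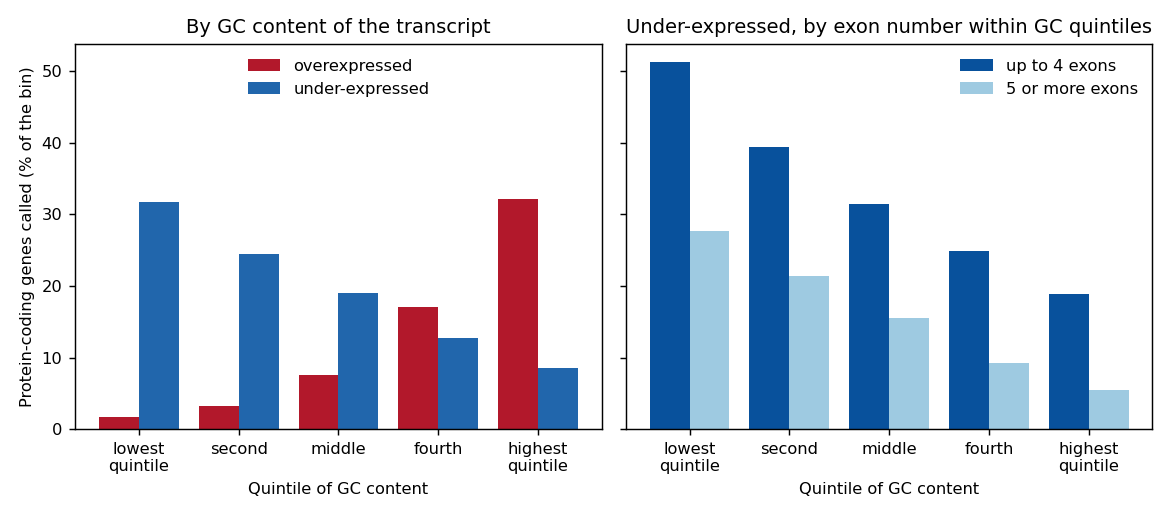
Left, the share of protein-coding genes overexpressed (red) or under-expressed (blue), in percent, in each quintile of transcript GC content. Right, the share under-expressed in the same quintiles for genes with up to 4 exons (dark) and with 5 or more (light). The dark bar is the taller in each quintile, from 51.2% to 18.9%, against 27.6% to 5.47%.

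Some limits concern single genes. The lists share genes, such as MDM2, BTG2, MCL1 and GADD45B, so their counts are not independent. Of the 135 genes whose fold change or level is given, 64 overlap an annotated gene on the opposite strand and 36 one on the same strand. The strand setting of the counting is not given in the sources used here, so such counts, among them those of KAT7, EP300, HNF4A, C2, IGF2, MCL1 and HSPA8, may hold reads of the neighbour. The GC content offset also ended the calls of EIF4A2 (-0.68), MED16 (0.90), SIRT2 (0.85), HDAC9 (-0.96), DNAJB9 (-0.77), ZMAT3 (-0.60), FDXR (0.76), XIAP (-0.63), PFKL (0.89), POLD1 (0.58), APOA1, ZFP36, SMARCA4 and CARM1. Library totals ended the calls of FOS, BTG2, ZFP36, TAF10, TAF15, MED16, MED24, SIRT2, SMARCA4, ASF1B, CARM1, CYB5R3, KDELR1, HYOU1, FDXR, POLD1, FTH1 and PFKL, whose log2 fold changes were then 0.60 to 0.9952.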

How the data were processed

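RNA from 12 Huh7 samples (4 groups of 3) was sequenced as stranded poly(A) libraries. The authors ran the NGI-RNAseq pipeline on GRCh37 and deposited raw counts per gene from featureCounts, and neither its version nor its strand setting nor the annotation release is given in the sources used here. No row lacked a gene name. Genes that reached 10 counts in 3 or more samples were kept, scaled by TMM and fitted with edgeR 4.0.16 (quasi-likelihood, R 4.3.3) over all 12 samples. Genes whose Benjamini-Hochberg adjusted p was below 0.01 and whose log2 fold change was above 1 or below -1 were called overexpressed or under-expressed. DESeq2 1.42.0 and other scalings, filters, a GC content offset, a replicate block and left-out samples were alternatives. On simulated counts for 17092 genes the fit called 42 of 50 genes lowered by 2, 38 of 50 lowered by 1.5, 45 of 50 raised by 1.5 and 50 of 50 raised by 2 on the log2 scale, and 0 of 16892 unchanged genes. Far fewer genes changed in the simulation than in the data, equally in both directions, and no shift in library composition was added. It therefore cannot show wrong calls that come from the scaling.

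The genes and lists were chosen with earlier results of these data known, and 3 lists matched by name patterns were restricted to protein-coding genes after the data were seen. Genes named were a fixed set of drug, p53 and liver genes, up to 3 largest rises and falls for each role among the calls (mean level 1 CPM or more, groups apart), and the 8 largest and 8 highest in each direction. A few genes of these sets are not reported here. Gene positions and structure come from an annotation lifted to GRCh37, with an entry for 16622 (97.3%) of the genes, and promoters from RefSeq (GRCh38.p14). Total counts of 28421737 to 38877420 per sample set the depth behind each value.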

Additional observations from a re-analysis of the deposited data

How the results depend on the processing

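Of 34 recounts of all genes, 31 stayed within 1.5 times the reported numbers. With library totals alone 1029 genes were overexpressed and 4937 under-expressed, and at an adjusted p below 1e-04 the overexpressed genes were 1403. With library totals the members overexpressed were 0 of the p53 targets, 1 of chromatin and 18 of liver secretion, and 13 p53 targets were under-expressed. Without a filter on low counts 4 p53 targets and 3 chromatin genes were overexpressed, and with the GC content offset, without or with the replicate block, 5 p53 targets were. The cause was not tested. Leaving out 1 sample at a time gave 1954 to 2148 overexpressed and 2903 to 3089 under-expressed genes, and 1 to 2 overexpressed p53 targets. Signs turned for JUN (-0.22), TOP1 (-0.21), AFP (-0.18) and CDKN1A (-0.23) with library totals, and for TOP2A (0.44) and H3F3B (0.0804, and 0.0820 with the replicate block) with the GC content offset. None of these 6 genes was called. DESeq2 called 2403 and 2835 genes and left 2 adjusted p-values empty. Fitting the replicate block gave 2170 overexpressed and 3142 under-expressed genes. Samples with the same replicate number had correlations of their deviations from the group means of 0.034, 0.022 and -0.024, so the numbers did not pair the samples. With 3 samples a group and no free DOX analysed, changes near the threshold are uncertain.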
